A study of Mus musculus with 714 samples.

Results

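The genes described here are Cd74, H2-Ab1 and H2-Eb1, which carry the class II antigen-presenting complex of the mouse, and they are 3 of the 12479 gene rows of the table. They were chosen by name, as the rows of the class II invariant chain and of 2 class II beta chains. The rule used no measured value, but earlier results of these data were known. The series holds uterine cells of ICR mice, an outbred stock, sorted 1 by 1 for the surface protein CD326 (EpCAM) on postnatal day (pnd) 0, 7, 14, 28 or 56 and read by CEL-seq, which counts the 3' ends of transcripts. It followed the epithelium of the uterus as it develops after birth. Of 960 sorted cells, 714 were analysed here; 24.2% of these are from pnd0, 37.4% from pnd7 and 24.2% from pnd14, while pnd28 gave 56 cells and pnd56 gave 45. The labels do not tie cells to animals or litters and state no treatment, so each age stands as 1 sample, and no difference between ages has a replicate check or a test.

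Class II molecules are surface proteins made of an alpha and a beta chain that show peptides from engulfed material to CD4 T cells. H2-Ab1 encodes the beta chain of the I-A molecule and H2-Eb1 the beta chain of I-E. Cd74 encodes the invariant chain, which holds the peptide groove closed until the complex reaches the compartment where peptides are loaded. Dendritic cells, macrophages and B cells make class II molecules all the time, and many other cells, epithelial cells among them, make them when exposed to interferon gamma. The master switch of the genes is Ciita, a coactivator that docks on factors bound to the promoter. H2-Ab1 and H2-Eb1 lie in the major histocompatibility complex on chromosome 17, and Cd74 lies on chromosome 18. The alpha chain H2-Aa was not analysed here.

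The cells summed to 582615 counts at pnd0, 732957 at pnd7, 354047 at pnd14, 96248 at pnd28 and 81894 at pnd56, with median depths of 3037, 2492, 1782, 1600 and 1670 counts per cell. Levels are counts per 1000000 counts of an age (CPM), with exact Poisson 95% intervals that cover counting error only. A block of 96 consecutive cell numbers in the titles is called a run here; each run holds 1 age, pnd28 is run 9 alone and pnd56 is run 8 alone, so that age and run cannot be told apart. To check the sort, 11 epithelial markers were summed, at 9509, 9166, 12097, 8395 and 9744 CPM from pnd0 to pnd56, led by Krt18, a keratin of simple epithelia. The cells were not all alike under that sum. At pnd28 Krt18 was counted in 44 of 56 cells and Epcam in 16, and Dcn, a proteoglycan of stroma, in 33. At pnd14, 12 cells had at least 3 of 4 measured smooth muscle markers, and 4 of these had Krt18. Krt8, Krt19 and Cldn4 had at most 3 counts each at pnd28 and at pnd56, although they also mark such epithelia.

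Class II counts were scarce up to pnd14, high at pnd28 and lower at pnd56, and at both later ages over 50% of the counts of each gene sat in a few cells that also carried leukocyte genes. Cd74 reached 3855 CPM at pnd28, H2-Ab1 602.6 CPM and H2-Eb1 477.9 CPM. At pnd28, 6 cells with leukocyte markers held 67.1% of the Cd74 counts, 68.97% of the H2-Ab1 counts and 89.1% of the H2-Eb1 counts. A stricter marker set, chosen after seeing the data, marked 4 cells, with 51.5%, 51.7% and 56.5% of those counts. Outside the 6 cells Cd74 was still counted in 32 of 50 cells of pnd28, whereas H2-Eb1 was counted in 3. A name that places these genes in epithelium therefore goes against where over 50% of the counts of each lay at pnd28, and they are called the class II genes below.

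Cd74 had 6 counts at pnd0, 50 at pnd7, 36 at pnd14, 371 at pnd28 and 62 at pnd56. Its level was 10.3 CPM at pnd0 (95% interval 3.78 to 22.4), 68.2 CPM at pnd7 (50.6 to 89.9), 101.7 CPM at pnd14 (71.2 to 140.8), 3855 CPM at pnd28 (3472 to 4268) and 757.1 CPM at pnd56 (580 to 970.5). The intervals of pnd7 and pnd14 overlapped and no others did. In order of level the ages ran pnd28, pnd56, pnd14, pnd7 and pnd0. Pnd28 was 37.9-fold above pnd14, a log2 ratio of 5.24 (interval 4.75 to 5.78). Pnd56 was below pnd28, with a log2 ratio of −2.35 (−2.76 to −1.96), and pnd7 was above pnd0, with a log2 ratio of 2.73 (1.51 to 4.24).

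H2-Ab1 had 0 counts at pnd0, 1 at pnd7, 6 at pnd14, 58 at pnd28 and 25 at pnd56. The level was 1.36 CPM at pnd7, 16.9 CPM at pnd14 (6.22 to 36.9), 602.6 CPM at pnd28 (457.6 to 779.01) and 305 CPM at pnd56 (197.6 to 450.6). Pnd28 exceeded pnd14 by a log2 ratio of 5.15 (3.94 to 6.66). The log2 ratio of pnd56 over pnd28 was −0.98 (−1.72 to −0.28), just under a 2-fold difference. At pnd0, 0 of 582615 counts allow a level of up to 5.15 CPM, the worth of 3 counts.

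H2-Eb1 was listed at 0 at pnd0, pnd7 and pnd14, which allows up to 5.15, 4.09 and 8.47 CPM. It had 46 counts at pnd28, or 477.9 CPM (350 to 637.5), and 11 counts at pnd56, or 134.3 CPM (67.1 to 240). Against a floor of 3 counts over pnd14, the level was at least 56.4-fold higher at pnd28 and at least 15.9-fold higher at pnd56. The log2 ratio of pnd56 over pnd28 was −1.83 (−2.93 to −0.86). The 3 genes thus shared the order of the last ages, with pnd28 highest, pnd56 next and pnd14 below.

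**Figure D1:**
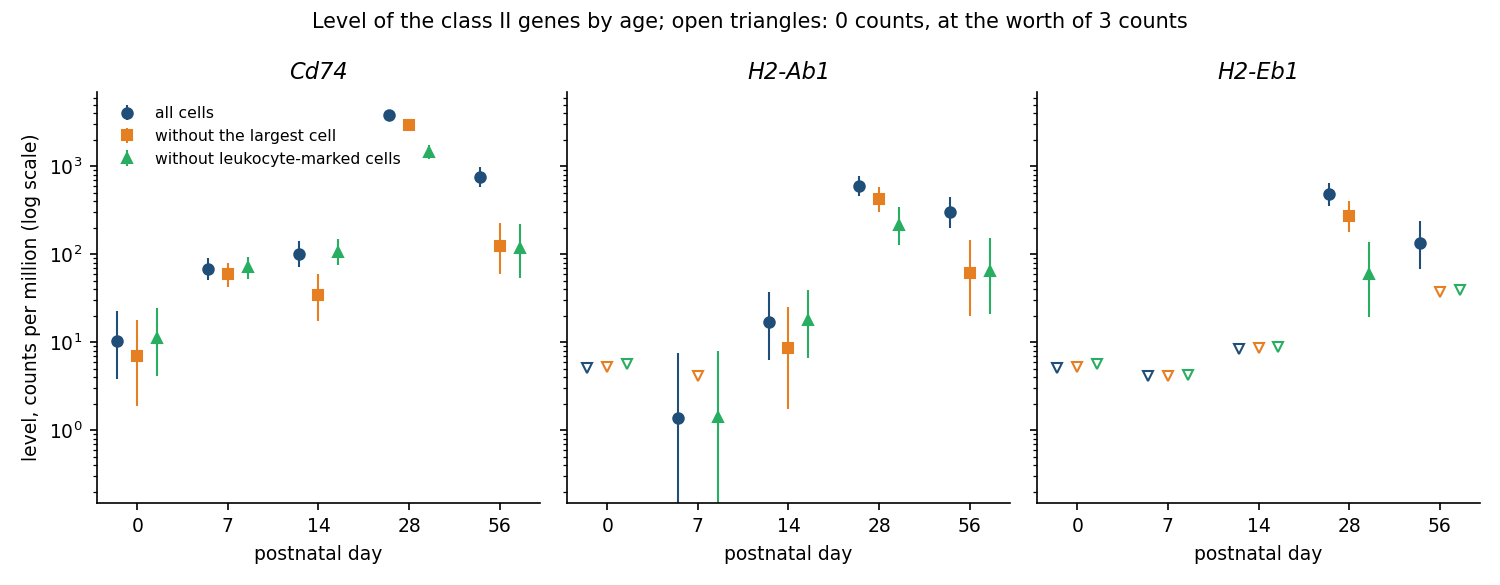
Level of Cd74, H2-Ab1 and H2-Eb1 in counts per 1000000 (log axis) by postnatal day, over all cells, without the cell with the most counts of the gene, and without leukocyte-marked cells. Bars are exact Poisson 95% intervals and open triangles mark the worth of 3 counts where the count was 0; at pnd28 the 3 Cd74 points stand at 3855, 2928 and 1457 CPM, and at pnd56 at 757.1, 123.9 and 116.7 CPM.

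Across the table, 11.9% of the 3785 genes with at least 20 counts over both ages were at least 2-fold higher at pnd28 than at pnd14, and all 3 class II genes were. H2-Eb1 was included through 46 counts at pnd28 with 0 at pnd14, so it could only be called higher. H2-Ab1 was included through its 58 counts at pnd28, with 6 at pnd14, whereas Cd74 had 371 and 36. For pnd56 over pnd14 the share was 12.3% of 3690 genes, and Cd74 and H2-Ab1 were among them, while H2-Eb1 had too few counts to be included. There H2-Ab1 was included through its 25 counts at pnd56. For pnd56 over pnd28, 16.5% of 1797 genes were at least 2-fold lower and 14.8% at least 2-fold higher. Cd74 and H2-Eb1 were among those lower, and H2-Ab1 was not. For pnd7 over pnd0, 4.94% of 5953 genes were at least 2-fold higher, and Cd74 was the only class II gene of the 3 with enough counts to be included.

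A few cells carried much of each sum. Of the 371 Cd74 counts of pnd28, 94, 77 and 54 were in 3 cells, or 60.6%. The remaining counts were spread, since 28 of the 56 cells had 2 or more and the median cell had 1.5. Without the largest cell the pnd28 level was 2928 CPM, and without the 3 largest cells 1615 CPM. At pnd56, 52 of 62 Cd74 counts were in 1 cell, or 83.9%, and the level without it was 123.9 CPM (59.4 to 227.9). At pnd14, 24 of 36 counts were in 1 cell, or 66.7%, and the level without it was 34 CPM. No cell of pnd0 had more than 2 counts and none of pnd7 more than 7. Leaving out the largest cell of both ages gave a log2 ratio of 6.43 for pnd28 over pnd14, of −4.56 for pnd56 over pnd28, of 1.87 for pnd56 over pnd14 and of −0.79 for pnd14 over pnd7, so the last of these took the other sign.

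The beta chains were more concentrated. The largest H2-Ab1 cells of pnd28 had 18, 11, 10 and 5 counts, and the 2 cells of pnd56 with any had 20 and 5. Without the largest cell H2-Ab1 stood at 422.8 CPM at pnd28 and at 61.96 CPM at pnd56. The largest H2-Eb1 cells of pnd28 had 20, 15, 6 and 3 counts, and 1 cell held all 11 counts of pnd56. Without the largest cell H2-Eb1 stood at 274.8 CPM at pnd28 and at 0 at pnd56, which allows up to 37.2 CPM.

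**Figure D2:**
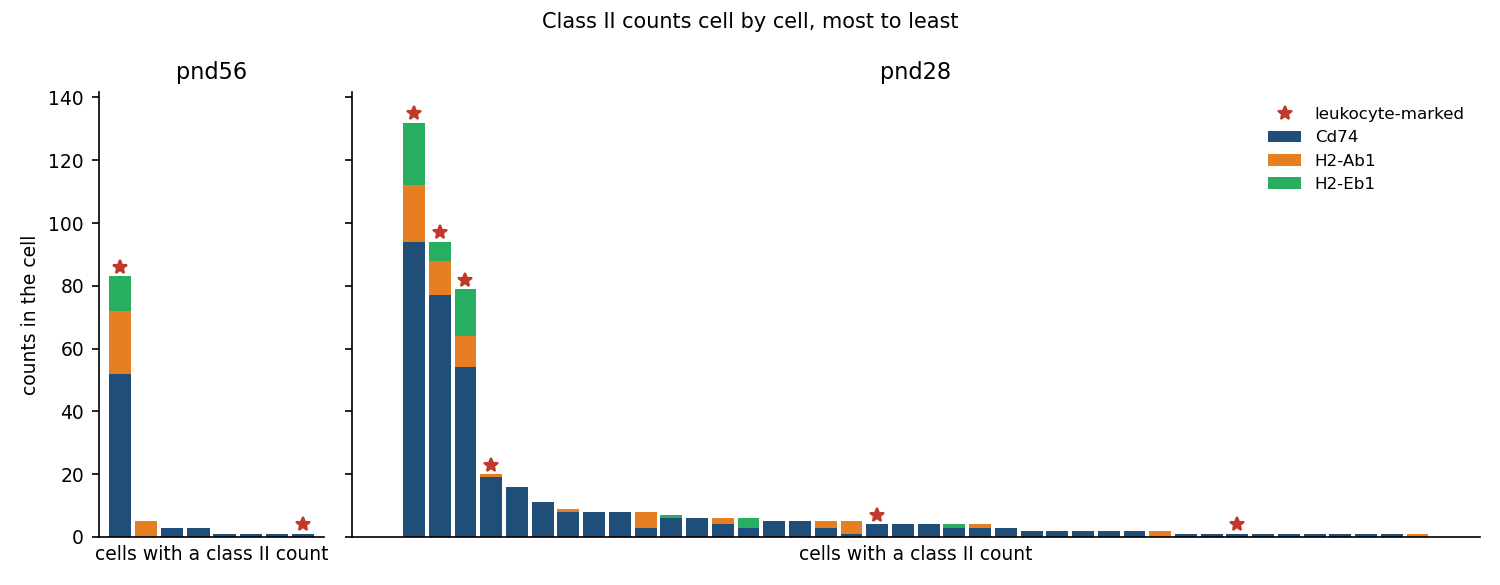
Counts of Cd74, H2-Ab1 and H2-Eb1 stacked for each cell that had any, at pnd56 and at pnd28, ordered by their sum; stars mark cells with at least 2 leukocyte markers. The first pnd56 cell had 83 class II counts and the next 5, whereas after the first pnd28 cell, the highest of all, the next 3 had 94, 79 and 20.

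The share of cells with a count separated Cd74 from the beta chains. The share of cells with Cd74 was 2.31% at pnd0, 7.87% at pnd7, 3.47% at pnd14, 67.9% at pnd28 (54.04 to 79.7, Clopper-Pearson 95% interval) and 15.6% at pnd56 (6.49 to 29.5). H2-Ab1 was counted in 21.4% of the cells of pnd28 (11.6 to 34.4) and in 4.44% of those of pnd56. H2-Eb1 was counted in 10.7% at pnd28 (4.04 to 21.9) and 2.22% at pnd56. With each cell thinned to 1000 counts, the Cd74 share was 0.58% at pnd0, 4.14% at pnd7, 2.47% at pnd14, 55.8% at pnd28 and 9.30% at pnd56, with 52 cells left at pnd28 and 43 at pnd56. Pnd28 therefore kept the highest share at equal depth, although its cells had the lowest median depth before thinning.

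**Figure D3:**
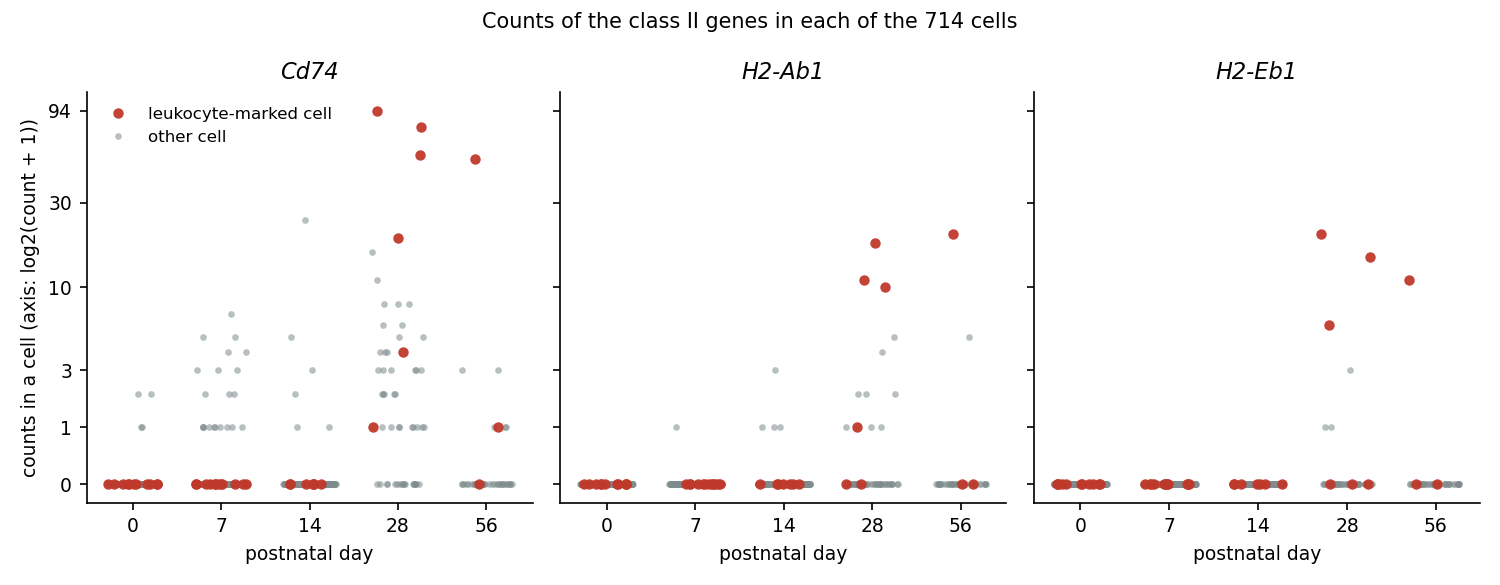
Counts of each class II gene in every cell by postnatal day (axis spaced by log2 of count + 1), with leukocyte-marked cells in red and other cells in grey. At pnd28 the 4 cells with the most Cd74 were leukocyte-marked, and Cd74 was also counted in 32 of the 50 grey cells.

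Leukocyte-marked cells are those with counts of at least 2 of 19 measured markers of leukocytes, macrophages, dendritic cells and lymphocytes; there were 11, 12, 7, 6 and 3 of them from pnd0 to pnd56. The leukocyte list summed to 135.6, 145.98, 124.3, 530 and 256.4 CPM at the 5 ages. Ptprc (CD45), the defining marker of leukocytes, had 1 count over all cells of pnd0 and 0 at each later age. Its 0 counts in the 5 cells of pnd28 with the most class II counts and in the first of pnd56 therefore do not tell whether these lack it. The 4 measured markers of B, T and NK cells were all at 0 at pnd28 and pnd56. They summed to only 5, 7 and 6 counts at pnd0, pnd7 and pnd14. At pnd0, pnd7 and pnd14 the marked cells had 0 counts of all 3 class II genes, and Lcp1 had the most counts of the 19 markers over all cells of each of these ages.

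At pnd28 Cd74 stood at 19928 CPM in the 6 marked cells and at 1457 CPM in the 50 others, 13.7-fold apart (log2 interval 3.46 to 4.10). H2-Ab1 stood at 3201 CPM in marked cells and at 214.9 CPM in the others, 14.9-fold apart. H2-Eb1 stood at 3281 CPM in marked cells and at 59.7 CPM in the others, 54.96-fold apart (log2 interval 4.44 to 7.48). The stricter set leaves out Coro1a, Csf1r and Lcp1. With it H2-Eb1 stood at 2866 CPM in 4 marked cells and at 229.4 CPM in the 52 others, 12.5-fold apart (log2 interval 2.75 to 4.56), while Cd74 was 10.2-fold and H2-Ab1 10.3-fold apart. The cell with 15 H2-Eb1 counts, which had 1 count each of Lcp1 and Laptm5, is marked under the first set and not under the stricter one. These intervals cover counting error within 1 run, and cells are not replicates. Of all class II counts, H2-Eb1 made up 12.4% in marked cells (9.07 to 16.5) and 3.45% in the others (1.13 to 7.86), and the intervals did not overlap. With the stricter set the H2-Eb1 shares were 10.5% in marked cells (6.99 to 15.04) and 8.77% in the others (5.44 to 13.2), and the intervals overlapped. Under the first set H2-Ab1 made up 12.1% in marked cells and 12.4% in the others. At pnd56 the 3 marked cells held 53 of 62 Cd74 counts, 20 of 25 H2-Ab1 counts and all 11 H2-Eb1 counts.

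The cell of pnd28 with the most class II counts had 94 of Cd74, 18 of H2-Ab1 and 20 of H2-Eb1 among 1648 in all. It also had 7 counts of Tyrobp, an adaptor of myeloid receptors, 4 of Laptm5, a lysosomal protein of leukocytes, 2 of Itgax (CD11c), 5 of Cd83, a maturation marker of dendritic cells, and all 4 Ciita counts of the age. Krt18 had 5 counts there, and Epcam, Cdh1, Cldn3, Cldn7 and Krt7 had 0. The next cell had 77, 11 and 6 class II counts among 3082, with 12 counts of Lsp1, a leukocyte cytoskeletal protein, 5 of Mpeg1, a pore protein of phagocytes, and also 8 of Krt18, 6 of Cldn3 and 1 of Epcam. The third had 54, 10 and 15 among 1106, with 7 counts of H2-Oa, 7 of Lsp1 and 3 of Krt18.

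The fourth cell of pnd28 differed from the first 3 in its other genes. It had 19 Cd74 counts, 1 of H2-Ab1 and 0 of H2-Eb1 among 1672, with 12 counts of Trem2, 5 of Emr1 (F4/80), 4 of Csf1r and 9 of Ctss, genes of macrophages. It also had 5 counts of Cldn3, 4 of Krt18, 2 of Cldn7 and 2 of Krt7, or 7775 CPM of epithelial markers, and 14 of Des, a filament of muscle. The fifth had 16 Cd74 counts, no H2-Ab1 or H2-Eb1, 7 counts of Krt18 and 1 of Epcam, with 1 leukocyte marker. The largest cell of pnd56 had 52, 20 and 11 class II counts among 1198, with 5 counts of Irf8, a transcription factor of dendritic cells and macrophages, 5 of Mpeg1, 10 of Lsp1 and 28 of Vim, and with 0 of Krt18 and Epcam. The largest cell of pnd14 had 24 Cd74 counts among 1093, 0 of both beta chains, 0 leukocyte markers and 3 counts of Krt18. Trem2, Mpeg1, Cd83, Lsp1, Emr1, Des and Vim were picked for naming here after their values in these cells were seen.

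Outside the marked cells, Cd74 was still higher at pnd28 than at any other age. It stood at 1457 CPM at pnd28 in 32 of 50 cells (49.2 to 77.1%), and at 116.7 CPM at pnd56 in 5 of 42 cells. At pnd14 it was counted in 6 unmarked cells, or 3.61%. Without marked cells the log2 ratio of pnd28 over pnd14 was 3.77 for Cd74, 3.59 for H2-Ab1 and 2.74 for H2-Eb1, the last as a bound. The log2 ratio of pnd56 over pnd14 for Cd74 was 0.12 without marked cells, against 2.90 with them. At pnd28 Cd74 was counted in 24 of the 33 cells with no leukocyte marker and stood there at 1302 CPM (1017 to 1642). At pnd56 it had 1 count in 26 such cells, or 20.8 CPM (0.53 to 115.9).

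Cd74 was also counted in cells marked as other types. Under a rule of at least 3 of 4 smooth muscle markers, pnd28 had 1 such cell, with 0 counts of all 3 class II genes, and a rule of 2 was added after seeing the data. By it, 4 cells were marked at pnd28, with a median depth of 1242 counts; 2 of the 4 had Cd74, at 780.9 CPM (212.8 to 2000), against 36 of 52 other cells, at 4027 CPM and a median depth of 1612. H2-Ab1 was also counted in 2 of the 4, at 976 CPM (317 to 2278), and H2-Eb1 in none. At pnd14, 22 cells marked by the rule of 2 had 0 Cd74 counts. The 7 measured stromal markers summed to 41.2, 124.2, 771.1, 3314 and 2857 CPM at the 5 ages. Among the pnd28 cells with Krt18 and no stromal or leukocyte marker, 6 of 11 had Cd74, with 17 counts in all, at most 5 in a cell and a level of 880 CPM (512.9 to 1410). In cells chosen the same way Cd74 had 0 counts in 20 cells of pnd56, and 32 counts in 3 of 88 cells of pnd14, 24 of them in 1 cell. The part of RNA from other cells of the run in these counts was not tested.

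**Figure D4:**
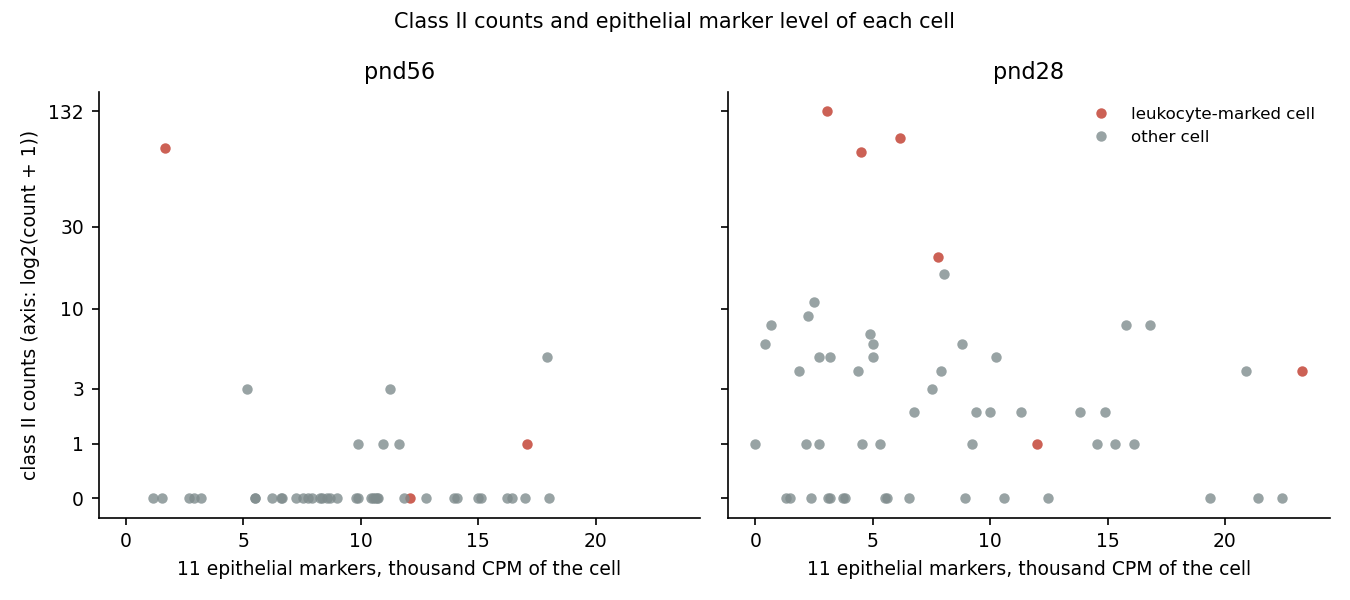
Summed Cd74, H2-Ab1 and H2-Eb1 counts of each cell (axis spaced by log2 of count + 1) against the level of 11 epithelial markers in that cell, at pnd56 and pnd28, with leukocyte-marked cells in red. The marked cell of pnd56 with 83 class II counts lies at 1669 CPM of epithelial markers and the first 4 of pnd28 at 3034, 6165, 4521 and 7775 CPM, against medians over all cells of 9865 CPM at pnd56 and 6350 CPM at pnd28.

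All 3 genes were counted together in 3 cells of pnd28 and in 1 cell of pnd56, and in none at the earlier ages; each of these 4 cells was leukocyte-marked. Another 10 cells of pnd28 had 2 of the genes and 27 had 1. Cd74 was counted in 10 of the 12 H2-Ab1 cells of pnd28 (83.3%, 51.6 to 97.9) and in 28 of the 44 cells without H2-Ab1 (63.6%, 47.8 to 77.6). All 6 H2-Eb1 cells had Cd74, and 3 of them had H2-Ab1. In cells that were not leukocyte-marked, 3 cells had H2-Eb1 and none of them H2-Ab1, while 8 had H2-Ab1. At pnd56 H2-Ab1 was counted in 1 cell with Cd74 and in 1 without, and the second of these cells had 5 counts of H2-Ab1 beside 27 of Krt18 and 3 of Epcam.

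Krt18 was detected at like rates with and without Cd74. At pnd28 it was counted in 30 of 38 Cd74 cells (78.9%, 62.7 to 90.4) and in 14 of 18 others (77.8%, 52.4 to 93.6), at median depths of 1619 and 1562 counts. At pnd56 it was counted in 6 of 7 Cd74 cells and in 35 of 38 others. Nor did Krt18 separate the marked cells as a group, at 4482 CPM at pnd28 against 3833 CPM in the others (log2 interval −0.21 to 0.64). With the stricter set it was 3087 against 4003 CPM (log2 interval −0.99 to 0.18). The 4 marked cells with the most class II counts stood at 3034, 2596, 2712 and 2392 CPM of Krt18. The median over all pnd28 cells was 2670 CPM.

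Epcam, the gene of the sorted surface protein, was counted at pnd28 in 8 of 38 Cd74 cells (21.1%, 9.55 to 37.3) and in 8 of 18 others (44.4%, 21.5 to 69.2). Thinned to 1000 counts, the shares were 3 of 29 Cd74 cells (10.3%) and 9 of 23 others (39.1%), and the intervals overlapped at both depths. Leukocyte-marked cells had 1 Epcam count among 6 cells and the others 29 among 50, at 80.03 and 346 CPM (log2 interval −7.47 to 0.48). Cdh1, the junction protein E-cadherin, had 1 count in marked cells and 36 in the others (log2 interval −7.77 to 0.14). Other epithelial markers, summed over the 6 marked cells, did not follow them. Cldn7, a claudin, stood at 1681 CPM in marked cells and at 596.99 CPM in the others (log2 interval 0.68 to 2.26). For Krt7 and Cldn3 the ratios of marked cells to the others were 1.68 and 1.24, with log2 intervals of −0.09 to 1.51 and −0.39 to 0.94. The 4 marked cells with the most class II counts had 0, 2, 0 and 2 of the 21 Cldn7 counts in marked cells. Their Krt7 counts were 0, 1, 1 and 2 of 18, and their Cldn3 counts 0, 6, 1 and 5 of 24. The remaining counts of these markers lay in the other marked cells. With the stricter set Krt7 stood at 330.7 CPM in marked cells and at 997.97 CPM in the others (log2 interval −3.90 to 0.0015). Cldn7 went the other way with that set, at 1874 CPM in marked cells and 619.4 CPM in the others (log2 interval 0.72 to 2.41). For Cldn3 the ratio was then 1.11 (log2 interval −0.69 to 0.91). In the 14 pnd28 cells with both Krt18 and Epcam, Cd74 was counted in 6 and stood at 3983 CPM, of which 77 counts came from the second cell described above. In the 5 of them with no leukocyte marker it was counted in 2, with 10 counts in all and 1004 CPM (481.7 to 1847). At pnd56, 24 cells had both, and Cd74 was counted in 3 of them, at 108.2 CPM (35.1 to 252.4).

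Of the partners of the class II genes, H2-DMa and H2-Oa also had many of their pnd28 counts in marked cells, and how many depended on the marker set. The list of class II chains and peptide loading had 10 genes, of which 8 had a row and 4 had at least 20 counts over pnd28 and pnd14. All 4 were at least 2-fold higher at pnd28, against 11.9% of all genes. Their median log2 ratio was 5.20, against −0.23 over all genes. Of the 4, 3 are Cd74, H2-Ab1 and H2-Eb1 themselves, so the list adds only 1 gene to what is given above. The count and the median are therefore no separate result. The fourth was H2-DMa, a chain of the H2-DM molecule that removes the invariant chain remnant, with 15 counts at pnd28 and 7 at pnd14, a log2 ratio of 2.98 (1.60 to 4.51). It was included through its 15 counts at pnd28. H2-DMa was at 155.8 CPM at pnd28 and 146.5 CPM at pnd56. Of its counts, 12 of 15 at pnd28 and 11 of 12 at pnd56 were in leukocyte-marked cells; with the stricter set these were 10 and 7. H2-Oa, a chain of the H2-DO molecule that restrains H2-DM, had 14 counts at pnd28 and 0 at pnd14, at least 17.2-fold higher, and 12 of the 14 were in marked cells, or 5 with the stricter set. The other chains of H2-DM had too few counts to be included, 1 at pnd28 and 8 at pnd14 for H2-DMb1, and 5 at pnd28 and 8 at pnd14 for H2-DMb2 (log2 ratio 1.20, −0.76 to 2.99). H2-DMb2 was highest at pnd0, at 66.9 CPM from 39 counts, against 51.9 CPM at pnd28. H2-DMb1 stood at 27.5 CPM at pnd0, from 16 counts, and at 10.4 CPM at pnd28. Marked cells were not compared with the others for these chains.

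Ctss, the protease that cuts the invariant chain in antigen-presenting cells, had 16 counts at pnd28 and 0 at pnd14, at least 19.6-fold higher, and 15 of the 16 were in marked cells, or 13 with the stricter set. Ctsh, a lysosomal aminopeptidase, had 84 counts at pnd28 and 97 at pnd14, a log2 ratio of 1.67 (1.23 to 2.11). Of the 4 genes of the processing list with enough counts, 2 were at least 2-fold higher at pnd28, against 11.9% of all genes. Cd9 was at least 2-fold lower, as were 23.2% of all genes. The other one that was higher was Cd63, close to the 2-fold line at 519.5 CPM at pnd28 and 248.6 CPM at pnd14. Cd9 and Cd63 are tetraspanins of endosomes and of the cell surface and not enzymes. Ciita had 4 counts at pnd28, all in 1 cell, and 0 at every other age. Rfx5, a subunit of the factor bound to the X box, had 2 counts at pnd28 and 38 at pnd14, a log2 ratio of −2.37 (−5.47 to −0.42), and so did not share the order of the class II genes.

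**Figure D5:**
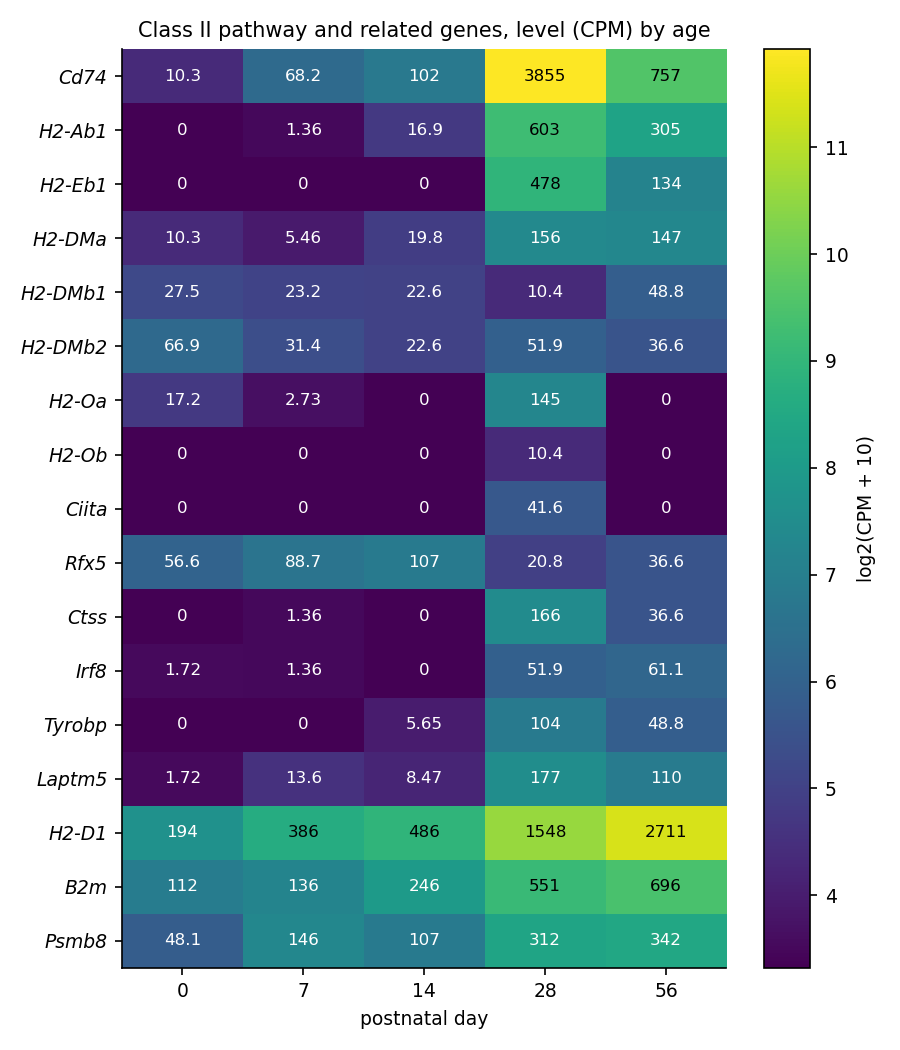
Level in CPM (numbers) of class II genes, their regulators, Ctss, the leukocyte genes Tyrobp and Laptm5 and class I pathway genes by postnatal day, coloured by log2(CPM + 10). H2-Oa and Ciita have counts at pnd28 beside 0 at pnd14 and pnd56, whereas H2-D1 stands higher at pnd56 than at pnd28. B2m and Psmb8 stand close at pnd28 and pnd56, from 53 and 57 counts for B2m and 30 and 28 for Psmb8.

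Class I genes, which present peptides from inside the cell, were counted in marked and in other cells. H2-D1, a class I heavy chain, stood at 485.8 CPM at pnd14, 1548 CPM at pnd28 and 2711 CPM at pnd56. At pnd28 it was at 2961 CPM in marked cells and at 1337 CPM in the others, 2.21-fold apart. B2m, the light chain of class I, was 3.45-fold apart, at 1441 CPM in marked cells and at 417.9 CPM in the others. Psmb8, a subunit of the immunoproteasome, was 2.87-fold apart at pnd28. At pnd56 it stood at 2301 CPM in marked cells and at 220.5 CPM in the others, 10.4-fold apart (log2 interval 2.14 to 4.56), with 10 of its 28 counts in the cell with the most class II counts. Of the class I list, 3 of 8 measured genes were at least 2-fold higher at pnd28 than at pnd14, with a median log2 ratio of 0.47, against 11.9% of all genes and a median of −0.23. Irf1, a transcription factor of the interferon gamma pathway, had a log2 ratio of 0.90 (0.44 to 1.35) for pnd28 over pnd14. From pnd0 to pnd56 it stood at 762.1, 652.2, 350.2, 654.6 and 268.6 CPM, and so did not share the class II order. Ifng, the ligand, was not analysed here. H2-D1 has close relatives in the genome, and the sources used here do not say how reads shared between them were counted.

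The promoter of H2-Eb1 is shown because it carries the elements through which class II genes are switched on together, the X box bound by the RFX complex and the Y box bound by NF-Y, with Ciita docking on both. The 250 bases before its start lie on chr17:34305617-34305866, plus strand, of GRCm38.p6, in the C57BL/6J reference and not in ICR. The sequence is from RefSeq. Capitals mark the X box core ACNGATG, the Y box CTGATTGG and a further CCAAT.
H2-Eb1: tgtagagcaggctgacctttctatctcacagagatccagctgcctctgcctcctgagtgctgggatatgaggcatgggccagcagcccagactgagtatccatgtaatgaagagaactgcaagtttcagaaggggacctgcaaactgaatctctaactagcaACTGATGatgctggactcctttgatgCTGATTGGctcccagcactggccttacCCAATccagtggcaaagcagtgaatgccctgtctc
Counted back from the start, the X box core begins at −88, the Y box at −62 and the CCAAT at −35. Searched on both strands, the X box core was in 9.85% of the 32851 promoters of 300 bases in the table, the Y box in 4.10% and CCAAT, which the Y box holds in reverse as ATTGG, in 37.4%. The core GAAANNGAA of the interferon-stimulated response element was in 8.56% of the promoters and was not found in that of H2-Eb1.

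Placing the X box core beside an ATTGG on the same strand, with 15 to 35 bases between their starts, left 55 promoters, or 0.17%; this spacing was chosen after the promoters had been seen. Of the class II list, 6 genes had a promoter in the table and 3 held the pair, with starts 29 or 30 bases apart. Of 13 class I list genes with a promoter, 3 held it, H2-D1, H2-Q4 and H2-Q7. No promoter of the processing enzymes or of the transcription factors did. The stretches of 3 genes are set out with that of H2-Eb1 to show the shared layout, with the X box core and ATTGG in capitals, at chr17:34305773-34305818, chr17:34153094-34153140, chr17:34145123-34145169 and chr17:35262982-35263028, all on the plus strand.
H2-Eb1: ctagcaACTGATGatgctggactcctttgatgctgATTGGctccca
H2-DMb1: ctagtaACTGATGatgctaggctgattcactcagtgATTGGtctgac
H2-DMb2: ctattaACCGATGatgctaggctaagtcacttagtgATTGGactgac
H2-D1: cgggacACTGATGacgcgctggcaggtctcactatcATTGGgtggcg
H2-Eb1 and H2-DMb1 share this layout, and at pnd28 they had 46 counts and 1. H2-Oa had 14. Its promoter held an X box core and a Y box on the same strand, but farther apart than the chosen 15 to 35 bases. Whether the layout bears on the counts was not tested.

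By the correlation of log2(CPM + 10) over the 10 runs, the 8 genes most like Cd74, of 4864 with at least 50 counts, were Ppapdc1b (r = 0.91), Klf6 (0.90), Ctsc (0.88), Anxa8 (0.87), Ctsa (0.86), Itgb4 (0.85), Anxa1 (0.85) and Ly6e (0.84). For H2-Eb1 the value was 0.83 and for H2-Ab1 0.72. Runs of one age share that age and a like depth, and Cd74 was highest in runs 9 and 8, so these values are a description with no test. Ctsc, the protease cathepsin C, stood at 50.8 CPM at pnd14, 145.5 CPM at pnd28 and 97.7 CPM at pnd56. Klf6, a zinc-finger transcription factor, stood at 598.8, 1444 and 866.97 CPM at those ages, and Anxa1, an annexin, at 112.98, 457.2 and 232.01 CPM. These 3 shared with Cd74 the order pnd28, pnd56, pnd14. Ly6e, an interferon-induced surface protein, was highest at pnd56, at 5043 CPM, against 3730 CPM at pnd28.

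Cd74 differed between runs of one age. At pnd14 run 4, with 24 cells, stood at 490 CPM, with 24 of its 32 counts in 1 cell, and runs 3 and 7 at 14.8 and 13.02 CPM. At pnd7 the 3 runs stood at 106.8, 38.96 and 56.3 CPM, with Cd74 in 12.5%, 3.45% and 7.61% of the cells and at most 5, 4 and 7 counts in a cell. At pnd0, run 1 had 6 counts in 4 cells and run 2 had 0. The 2 later ages have 1 run each, so the spread between runs could not be measured there.

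The mucosal secretory list, fixed for the epithelium of this tissue, moved in part with the class II genes. Of its 5 measured genes, 4 were at least 2-fold higher at pnd28 than at pnd14, with a median log2 ratio of 2.12, against 11.9% of all genes and a median of −0.23. The fifth, Wfdc18, a whey acidic protein family gene, stood at 93.5 CPM at pnd28 and at 392.6 CPM at pnd14. Pigr, the receptor that carries IgA across epithelium, had 37 counts at pnd28 and 0 at pnd14, at least 45.4-fold higher, and 52 counts at pnd56. With 0 at pnd14, Pigr could only be called higher at pnd28. Its log2 ratio of pnd56 over pnd28 was 0.72 (0.09 to 1.37), where that of Cd74 was −2.35. Prap1, a secreted uterine protein, had 1017 counts at pnd56 and 70 at pnd28, a log2 ratio of 4.09 (3.74 to 4.46). With 4 counts at pnd14, Prap1 was included for pnd28 over pnd14 through its 70 at pnd28. Icam1, an adhesion molecule of antigen-presenting and other cells, shared the order pnd28, pnd56, pnd14, at 322, 134.3 and 33.9 CPM. Unlike the class II genes, it stood well above its pnd14 level at pnd0 and pnd7, at 121.9 and 106.4 CPM. Its log2 ratios were 3.25 (2.25 to 4.34) for pnd28 over pnd14 and −1.26 (−2.40 to −0.23) for pnd56 over pnd28.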

How the data were processed

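Whole-number counts per gene and cell were deposited by the authors in 1 table of 12479 gene rows and 714 cells, made from CEL-seq libraries per the labels' protocols. The submitters' processing notes name TopHat, Cuffnorm and the build mm9, but no versions or roles. All values are whole and cell totals differ, so they were treated as raw counts. The sources used here do not say whether molecular identifiers were collapsed, so intervals and floors cover counting error only. A name used by 2 rows was left out of comparisons over all genes.

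Counts were summed over the cells of an age and divided by all counts, per 1000000 (CPM). Levels carry exact Poisson intervals, ratios exact conditional binomial intervals and shares Clopper-Pearson intervals, all at 95%. A floor of 3 counts stood for 0, and no ratio was given where both sides had 3 counts or fewer. Ratios of simulated counts were checked for coverage. Genes over all comparisons needed 20 counts over both ages. Genes named were the members, members of the gene lists, Krt18, Epcam and the 8 genes most correlated with Cd74, beside those said to be picked later. Some list results are not reported here. The members, lists and marker rules were chosen with earlier results of these data known. Python 3.11.15 was used with numpy 2.4.6, scipy 1.17.1 and pandas 2.3.3.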

Additional observations from a re-analysis of the deposited data

How the results depend on the processing

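No paired analysis was possible because each age is 1 sample and the replicate numbers only name cells in accession order. Ratios below are log2, written as later/earlier age. For Cd74, pnd28 stayed above pnd14 and pnd56 below pnd28 under every alternative run. Without the largest cell, Cd74 gave −0.79 in pnd14/pnd7, 6.43 in pnd28/pnd14, −4.56 in pnd56/pnd28 and 1.87 in pnd56/pnd14, H2-Ab1 −2.77 in pnd56/pnd28, and H2-Eb1 5.01 in pnd28/pnd14. Without the 3 largest cells Cd74 gave 4.70 in pnd7/pnd0, −1.98, 7.13, −4.96 and 2.16, H2-Ab1 gave −2.39 in pnd56/pnd28, and H2-Eb1 2.68 in pnd28/pnd14 and −0.51 in pnd56/pnd28.

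Without leukocyte-marked cells Cd74 gave 3.77 in pnd28/pnd14, −3.64 in pnd56/pnd28 and 0.12 in pnd56/pnd14, H2-Ab1 3.59, −1.73 and 1.86, and H2-Eb1 2.74 and −0.62 for the first 2. With a stricter marker set, chosen after seeing the data (no Coro1a, Csf1r or Lcp1), Cd74 gave 4.34, −4.19 and 0.16, H2-Ab1 −2.35 in pnd56/pnd28 and 1.89 in pnd56/pnd14, and H2-Eb1 4.76 in pnd28/pnd14. Leaving out cells with smooth muscle or stromal markers, the second also chosen after seeing the data, and median-of-ratios scaling moved no ratio out of its interval.

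In cells with Krt18, Cd74 gave −5.05 in pnd56/pnd28 and 0.26 in pnd56/pnd14, H2-Ab1 −3.34 and 2.11, and H2-Eb1 −3.90 in pnd56/pnd28. In cells with Epcam, Cd74 gave −0.35 in pnd14/pnd7, −5.19 and 0.56, H2-Ab1 −2.08 and 2.43, and H2-Eb1 3.29 in pnd28/pnd14. Thinning to 1000 counts gave 1.67 in pnd14/pnd7 and 4.50 in pnd28/pnd14 for Cd74, and 5.01 in pnd28/pnd14 for H2-Eb1. The mean CPM over cells gave 4.64 in pnd28/pnd14 and −1.86 in pnd56/pnd28 for Cd74. The share of cells with Cd74 was 0.58% at pnd0 and 4.14% at pnd7 when thinned, and with 2 counts required 4.12% at pnd7 and 50% at pnd28. The H2-Ab1 share at pnd7 became 0 both ways and that at pnd14 0.58% with 2 counts, and H2-Eb1 at pnd56 became 0 thinned to 1500.

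Leaving out each run in turn, the ratio of Cd74 ranged from 1.75 to 2.95 in pnd7/pnd0, from −2.30 to 1.31 in pnd14/pnd7, from 4.51 to 8.12 in pnd28/pnd14 and from 2.16 to 5.77 in pnd56/pnd14. For H2-Ab1 the ranges were 1.34 to 3.93 in pnd14/pnd7, 4.86 to 5.46 in pnd28/pnd14 and 3.88 to 4.48 in pnd56/pnd14, and for H2-Eb1 5.00 to 5.52 in pnd28/pnd14 and 3.17 to 3.69 in pnd56/pnd14. Run 4 holds the pnd14 cell with 24 Cd74 counts, and the highest Cd74 ratios of pnd28 and pnd56 over pnd14 are those without it. Of the 8 genes most like Cd74, 6 stayed among the first 8 with a pseudocount of 50 and 2 by rank correlation. Ratios against 0 counts are bounds and fall with the number of counts left. With the stricter set the H2-Eb1 shares of class II counts in marked and other cells at pnd28 no longer had separate intervals. Levels below the worth of 3 counts were not detectable at these depths.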
